A study of Mus musculus with 310 samples.

Results

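Mettl7a3 and Selenbp1 are 2 of the 14068 genes of a single-cell table from mouse tail epidermis. They were selected on their summed reads, as genes with higher levels in the group 38w than in the group 38wUW, so their difference between these groups is a description and was not tested. To evaluate whether the state of repaired skin lasts with age, the study sorted tdTomato-positive epidermal cells from repaired tail skin and from skin of age-matched controls, and sequenced them 1 by 1. All mice were of a mixed CBA C57BL/6 strain and carried Lrig1-EGFP-ires-CreERT2 with Rosa26-fl/STOP/fl-tdTomato, a reporter that is switched on for good in cells expressing Lrig1, a gene of stem cells of the hair follicle junctional zone, and in their progeny. Hydroxytamoxifen, which activates the recombinase, was put on the tail skin of the mice once, before the wound. The labels give 145 cells of 38w, from replicates RepI (70 cells, plates C114 and C118) and RepL (75 cells, plate C119), and 165 cells of 38wUW, from RepM (82 cells, plate C128) and RepN (83 cells, plate C129). They do not spell out UW, nor which group had been wounded, and the animals' age beyond the 38w of the label is not given there. Differences therefore run from 38wUW to 38w and not from control to repaired skin. The study describes its single-cell data of aged skin as 2 independent experiments with several biological replicates each. It does not say how these match the replicates of the labels. Nothing in the labels says how many animals a replicate holds, so the spread between replicates may be technical.

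Selenbp1 encodes selenium-binding protein 1, a methanethiol oxidase. Methanethiol is a sulfur compound formed from methionine, and its oxidation yields hydrogen sulfide, hydrogen peroxide and formaldehyde. The protein binds selenium without being a selenoprotein. Mettl7a3 belongs to the METTL7 methyltransferases, membrane proteins of the endoplasmic reticulum and of lipid droplets whose human members transfer a methyl group from S-adenosylmethionine to thiols, hydrogen sulfide among them. For the mouse Mettl7a3 product this activity is inferred from the family. In mouse tail, the epidermis between hair follicles is divided into scale, which keratinizes as a plate, and interscale, which differentiates as the epidermis of the back does. The study lists Selenbp1 among genes of the scale.

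Both genes have near-identical copies beside them in the genome, and this sets how well their reads can be told from those of the copies. Mettl7a3 (ENSMUSG00000058057.5) is a protein-coding gene of 2 exons at chr15:100334929-100340375 on the plus strand of GRCm38, between Mettl7a1 (chr15:100304140-100328662) and Mettl7a2 (chr15:100353200-100361840), both on the plus strand. The coding sequences are 732 bases long in all 3 genes. Mettl7a3 is identical to Mettl7a2 at 99.04% of aligned coding positions and to Mettl7a1 at 94.3%, whereas Mettl7b on chromosome 10 reaches 64.8%. The first 75 coding bases, the length of 1 read, are shown because they show how few bases assign a read to a gene. They lie in 1 exon at chr15:100334930-100335004 (Mettl7a3), chr15:100304847-100304921 (Mettl7a1) and chr15:100353210-100353284 (Mettl7a2), and capitals mark the 8 positions at which the 3 are not all the same.
Mettl7a3: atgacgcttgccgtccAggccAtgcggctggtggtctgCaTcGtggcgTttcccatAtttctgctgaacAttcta
Mettl7a1: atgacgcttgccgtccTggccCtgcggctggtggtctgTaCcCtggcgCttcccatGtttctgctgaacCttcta
Mettl7a2: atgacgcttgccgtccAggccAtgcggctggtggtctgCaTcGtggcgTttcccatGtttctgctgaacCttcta
Of the 1578 windows of 75 bases in the annotated Mettl7a3 transcript, 579 (36.7%) also occur in a transcript of a paralog, 575 of them in Mettl7a2 and 44 in Mettl7a1. A read from such a window is divided between genes by estimation. Accordingly, the estimated count of Mettl7a3 was not a whole number in 65 of its 102 cells (63.7%).

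Selenbp1 (ENSMUSG00000068874.13) has 12 exons at chr3:94933056-94944758 on the plus strand, and its copy Selenbp2 lies on the same strand at chr3:94693556-94704413. Their coding sequences of 1416 bases are identical at 98.7% of positions, and 569 of 1638 windows of 75 bases (34.7%) are shared. Even so, the count was not whole in only 3 of the 57 cells with Selenbp1. The copies also resemble each other upstream. The 220 bases that end 31 bases before the RefSeq start (GRCm38.p6) are shown for both, at chr3:94932833-94933052 and chr3:94693323-94693542, because the genes differ widely in reads. Capitals mark the bases that differ or face a gap in an alignment with free ends.
Selenbp1: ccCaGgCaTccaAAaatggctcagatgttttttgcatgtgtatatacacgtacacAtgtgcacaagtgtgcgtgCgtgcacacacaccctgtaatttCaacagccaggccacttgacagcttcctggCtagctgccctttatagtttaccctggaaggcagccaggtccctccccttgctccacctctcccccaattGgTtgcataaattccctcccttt
Selenbp2: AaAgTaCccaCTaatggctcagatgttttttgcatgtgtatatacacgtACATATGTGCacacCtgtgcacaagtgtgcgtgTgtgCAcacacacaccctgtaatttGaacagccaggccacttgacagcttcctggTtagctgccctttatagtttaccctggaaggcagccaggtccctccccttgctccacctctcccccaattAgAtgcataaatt
They were identical at 196 of 220 aligned positions (89.1%), with 12 substitutions and 12 gap positions. TATAAA, searched on both strands, occurred once in each, and in 10.4% of 27025 promoters of the same length. The motif TGANTCA was in neither, against 6.24% of these promoters. CACGTG was also in neither (5.03% of promoters), nor was the motif TGACNNNGC (8.70%). Such a match or its absence describes the letters only.

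The libraries differed in depth and in content. A cell had between 11711 and 721564 reads, with a median of 61294, and a replicate between 5472070 and 12946742. The median share of ribosomal protein genes in a cell was 28.1% on C114 and 3.42% to 6.40% on the other plates. The mitochondrial share was 2.77% on C114 and 33.8% on C118, although both plates carry RepI. On C114, 11 wells are named by a pair of cells each. Their profiles correlated at a median of 0.516, against 0.444 for other pairs on that plate, and no profiles were identical, so all were kept. An unexplained suffix follows the name of 15 cells, IDTILL for 13 and MBULK for 2. As mini-bulk libraries were also made in the study, the latter may hold more than 1 cell. Without the 15, the log2 fold changes given further on were 5.23 for Mettl7a3 and 4.81 for Selenbp1, and without the 2 they were 5.28 and 5.05. Sorted keratinocytes were checked for other cells. Basal keratin and adhesion markers summed to 3470 to 23549 counts scaled to 1000000 reads (CPM), with all 8 detected in every replicate. Immune markers (2 of 10 in the table) summed to 0.824 to 1.72 CPM, melanocyte markers (4 of 6) to 10.9 to 25.9, Merkel cell markers (1 of 4) to 0.517 to 5.14 and fibroblast markers (5 of 6) to 62.7 and 21.3 CPM in 38w against 17.5 and 8.42 in 38wUW. Col1a1, Col1a2 and Pdgfra were at 0 in RepI. Of the endothelial list (2 of 4), Pecam1 alone reached 1264 to 8773 CPM, without separating the groups, while Kdr stayed at or under 0.411 CPM.

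Mettl7a3 was read in many 38w cells and in few 38wUW cells. In CPM of summed reads, the 38w replicates stood at 391 (RepI) and 279 (RepL) and the 38wUW replicates at 16.9 (RepM) and 3.70 (RepN). Reads were found in 44 of 70 cells (62.9%, 95% Wilson interval 51.2 to 73.2) and 36 of 75 cells (48.0%, 37.1 to 59.1) of the 38w replicates. The same counts were 12 of 82 cells (14.6%, 8.57 to 23.9) and 10 of 83 cells (12.05%, 6.68 to 20.8) in 38wUW. Both 38w replicates thus lay above both 38wUW replicates on both measures. The mean was 335 ± 79.2 CPM (SD, n = 2) against 10.3 ± 9.35 CPM (SD, n = 2), a ratio of 32.5. In all, 97.5% of Mettl7a3 reads came from 38w. By plate, the level was 446 CPM on C114, 135 on C118, 279 on C119, 16.9 on C128 and 3.70 on C129, so that each 38w plate lay above each 38wUW plate. With every cell thinned to 20000 reads, the share of cells with a read was 54.4% and 44.3% in 38w against 9.38% and 2.67% in 38wUW, and the gap between groups, 43.3 percentage points, was close to the 42.1 points without thinning. Few cells held most of the reads. The top cell had 16.9% of them in RepI and 30.6% in RepL, and 48.5% and 40.3% in RepM and RepN. Without the top cell of each replicate the levels were 333 and 206 CPM against 8.82 and 2.22 CPM, so the groups were still apart.

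Selenbp1 was rarer, and its level in 38w depended on the plate. The summed levels were 239 CPM (RepI) and 60.5 CPM (RepL) against 7.49 CPM (RepM) and 3.32 CPM (RepN). Reads were found in 27 of 70 cells (38.6%, 95% Wilson interval 28.0 to 50.3) and 14 of 75 cells (18.7%, 11.5 to 28.9) of 38w, and in 7 of 82 cells (8.54%, 4.197 to 16.6) and 9 of 83 cells (10.8%, 5.81 to 19.3) of 38wUW. Again the replicates of the groups did not overlap, but the interval of RepL overlapped those of RepM and RepN. The means were 150 ± 126 CPM and 5.41 ± 2.95 CPM (SD, n = 2 each), a ratio of 27.7, and 97.0% of the reads came from 38w. By plate the level was 284 CPM on C114, 30.8 on C118, 60.5 on C119, 7.49 on C128 and 3.32 on C129. The 2 plates of RepI thus differed more from each other than C118 did from C119. A single cell held 34.3% of the Selenbp1 reads of RepI, and another 39.9% of those of RepL. After thinning, the share of cells with a read was 26.5% and 17.1% against 6.25% and 5.33%. Intervals treat the cells of a replicate as independent and leave out the spread between replicates, so they are no comparison of the groups. The protocol has no molecular identifiers.

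**Figure D1:**
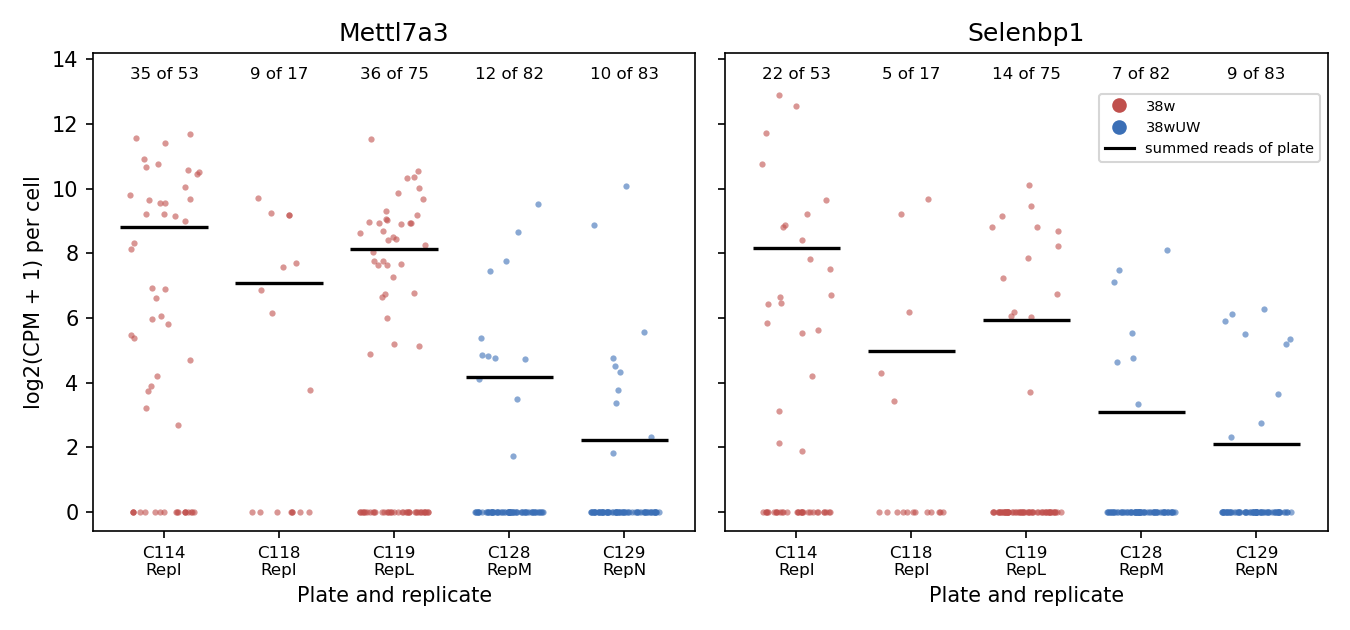
Mettl7a3 (left) and Selenbp1 (right) in each of the 310 cells, as log2(CPM + 1) on the y axis, by plate and replicate on the x axis. Each point is a cell, the black line is the level of the plate's summed reads, and the numbers on top give the cells with a read; the lines of the 3 plates of 38w lie above those of both 38wUW plates for both genes.

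The same separation of replicates was common in these data, which sets the scale for it. Of 11757 genes tested between groups, 12.6% had both 38w replicates above both 38wUW replicates in CPM, and 3.87% had all 3 plates of 38w above both plates of 38wUW. In the fit across all genes (edgeR, quasi-likelihood test on sums per replicate), the log2 fold change of Mettl7a3 was 5.28 ± 1.11 (SE), in place 19 of 11757, and that of Selenbp1 was 5.06 ± 1.09, in place 21, where the median of all genes was 0.12. These places are what the genes were chosen for. No gene passed an adjusted p of 0.05 (0% called), although the unadjusted p was under 0.05 for 949 genes (8.07%). With DESeq2, 67 genes passed (0.57%). The number of calls rested on single replicates, since 1223 genes passed without RepL and 125 without RepI. Leaving out the same replicates gave log2 fold changes of 5.60 and 5.01 for Mettl7a3, and of 5.83 and 3.73 for Selenbp1. Without plate C114 the value of Selenbp1 was 3.33, and without RepM that of Mettl7a3 was 6.80. Fewer cells with a transcript and less transcript per cell cannot be told apart in sums, but the cells separate them in part. Among cells with a read, the median levels of Mettl7a3 were 542 and 381 CPM in the 38w replicates against 27.4 and 20.5 CPM in the 38wUW replicates. For Selenbp1 the medians were 104 and 265 CPM against 44.97 and 39.8. Thus cells with a read were more frequent in 38w and also stood at higher levels, for both genes.

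The summed levels of the paralogs overlapped between the groups. Levels were compared per length, as CPM per kilobase of the longest annotated coding transcript. Mettl7a3 stood at 237 and 169 in the replicates of 38w against 10.3 and 2.24 in 38wUW, where Mettl7a1 stood at 22.2 and 20.6 against 8.68 and 27.4. Mettl7a3 was thus the most abundant gene of the family in both 38w replicates, and Mettl7a1 in RepN, while the pair was nearly level in RepM. Cells with a Mettl7a1 read were nevertheless more frequent in 38w, at 55.7% and 34.7% against 23.2% and 21.7%. A single cell held 44.0% of the Mettl7a1 reads of RepN. Without the highest cell of each replicate, Mettl7a1 stood at 39.4 and 32.1 CPM against 14.0 and 30.2 CPM, and the groups were just apart. Mettl7a2 remained between 0.531 and 3.54 and Mettl7b, a METTL7 member on another chromosome, between 0.297 and 2.80, with overlapping groups for both. Selenbp1 stood at 140 and 35.3 against 4.38 and 1.94 on the same scale, whereas Selenbp2, the near-identical copy, lay between 0.0899 and 0.638 and had 13.8 reads in all. In the fit, the log2 fold changes of Mettl7a1 (0.49 ± 0.90, SE), Mettl7a2 (1.46 ± 1.36) and Mettl7b (1.23 ± 1.41) were all below 2 of their standard errors, and Selenbp2 had too few reads to be tested. Because reads of Mettl7a1, Mettl7a2 and Mettl7a3 are divided by estimation, their sum was also taken. It was 441 and 320 CPM in the 38w replicates against 34.8 and 59.4 CPM in RepM and RepN, so the groups were apart without the division. Mettl7a3 made up 88.8% and 87.2% of this sum in 38w, 48.6% in RepM and 6.24% in RepN.

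**Figure D2:**
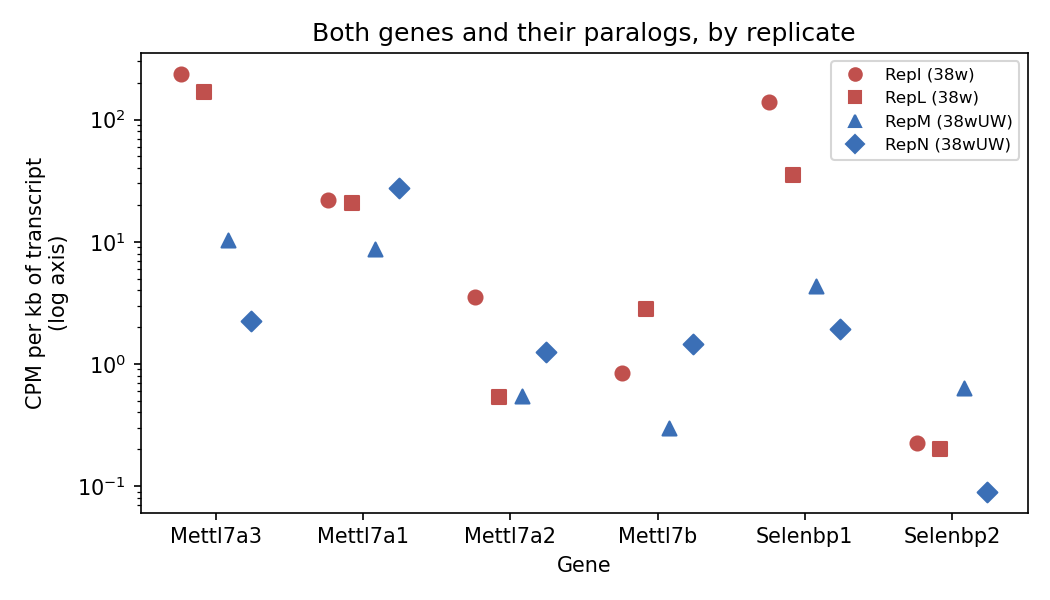
Levels of Mettl7a3, Selenbp1 and their paralogs in the 4 replicates, as CPM per kilobase of transcript on a log axis; each point is a replicate. The groups are apart for Mettl7a3 (169 and above against 10.3 and below) and Selenbp1 (35.3 and above against 4.38 and below) and overlap for Mettl7a1, Mettl7a2, Mettl7b and Selenbp2.

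Both genes were found together in 38w cells. On C114, 18 of 53 cells had both, where 14.5 would if the genes were unrelated. On C119 it was 11 of 75 cells against 6.72, and on C118 it was 4 of 17 cells against 2.65. Selenbp1 was read in 51.4%, 44.4% and 30.6% of the Mettl7a3 cells of C114, C118 and C119, and in 22.2%, 12.5% and 7.69% of the other cells. On each 38wUW plate 1 cell had both genes, where 1.02 and 1.08 would. The Spearman correlation of log2(CPM + 1) across the cells of a plate was 0.36, 0.56 and 0.44 on C114, C118 and C119 (53, 17 and 75 cells), and 0.01 and -0.03 on C128 and C129 (82 and 83 cells). Cells of a plate share their library preparation and differ in depth. The Spearman correlation of each gene with the total reads of a cell lay between -0.34 and 0.24 over both genes and all plates, and on C118 it was -0.27 for Mettl7a3 and -0.34 for Selenbp1. The part of depth in the joint detection was not tested.

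Several of the genes that went with Mettl7a3 in the same cells are known from suprabasal epidermis. Likeness was the mean over the 5 plates of the Spearman correlation across cells, weighted by cells, for 9246 genes read in at least 10% of cells. Mt4, the metallothionein of stratified epithelia, had the highest value at 0.52. Its correlation was 0.84, 0.79 and 0.81 on the 38w plates and 0.28 and 0.24 on the 38wUW plates. It was followed by Krt2 (0.47), a keratin of the upper spinous layer, by Ly6a (0.39) and Ly6c1 (0.38), which encode small lipid-anchored surface proteins, and by Mettl7a1 (0.37), with which it shares reads. Cstdc5, of the stefin family of protease inhibitors (0.37), Ggct, an enzyme of glutathione breakdown (0.36), the transcription factor Maf (0.35), Dapl1 (0.35) and the acyl-CoA thioesterase Them5 (0.34) complete the 10 highest. The 99th percentile of the genes compared was 0.20. The 3 lowest were the hair follicle transcription factor Sox9 (-0.42), the Wnt receptor Fzd7 (-0.42) and the adhesion molecule Epcam (-0.39). The study's own marker list of differentiated interfollicular cells, made on young mice that are not among these samples, holds 7 of the 10 highest. That list names Mettl7a3 too, which was left out of the counts here. Over that list, 70 of 79 genes compared had a value above 0 with Mettl7a3 (median 0.16), beside a median of -0.01 over the 9246 genes.

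Mt4 and Mettl7a3 marked largely the same cells of 38w. Mt4 was read in 48 of 70 cells of RepI and 41 of 75 of RepL, and these cells held 99.4% and 98.9% of the Mettl7a3 reads. Mettl7a3 was read in 83.3% and 80.5% of the Mt4 cells and in 18.2% and 8.82% of the cells without Mt4. In 38wUW, Mt4 cells were fewer, 14 of 82 and 10 of 83, and Mettl7a3 was read in 35.7% and 30.0% of them, against 10.3% and 9.59% of the rest. Among Mt4 cells the mean level of Mettl7a3 was 636 and 449 CPM in 38w against 100.9 and 114.4 CPM in 38wUW. Without the highest cell of each replicate these means were 579 and 386 CPM against 52.0 and 7.33 CPM. Thus Mt4 cells were more frequent in 38w, and the Mt4 cells of 38w also had more Mettl7a3 than those of 38wUW. Mt4 itself ran at 4544 and 369 CPM in the 38w replicates and at 99.2 and 19.1 CPM in the 38wUW replicates.

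Selenbp1 had weaker partners. Its highest likeness was with Krt24, a type I keratin, at 0.31, which rose to 0.67 on C119 and was 0.20 and 0.09 on the 38wUW plates. Oas1f, of the oligoadenylate synthetase family (0.29), the homeobox factor Cux1 (0.29), Id3, an inhibitor of helix-loop-helix factors (0.27), and Mt4 (0.24) came next. Nudt18 (0.24), Gcat-II (0.23), the gap junction gene Gja1 (0.22), Ggct (0.22) and the microtubule gene Map2 (0.21) complete the 10 highest, where the 99th percentile was 0.17. Mt4 and Ggct are the 2 genes shared with the 10 highest of Mettl7a3. Epcam (-0.21), the cytoplasmic actin gene Actg1 (-0.20) and the vitamin D receptor gene Vdr (-0.19) were lowest. Krt24 cells were 20 of 70 and 16 of 75 of the 38w cells and held 91.1% and 96.0% of the Selenbp1 reads. In 38wUW, 9 of 82 and 12 of 83 cells had Krt24, and they held 48.8% and 23.3% of the few Selenbp1 reads. In RepI, 17 of 50 cells without Krt24 also had Selenbp1, at a low mean of 51.1 CPM against 1069 CPM in the Krt24 cells. In sparse counts a likeness of this size is a description only.

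**Figure D3:**
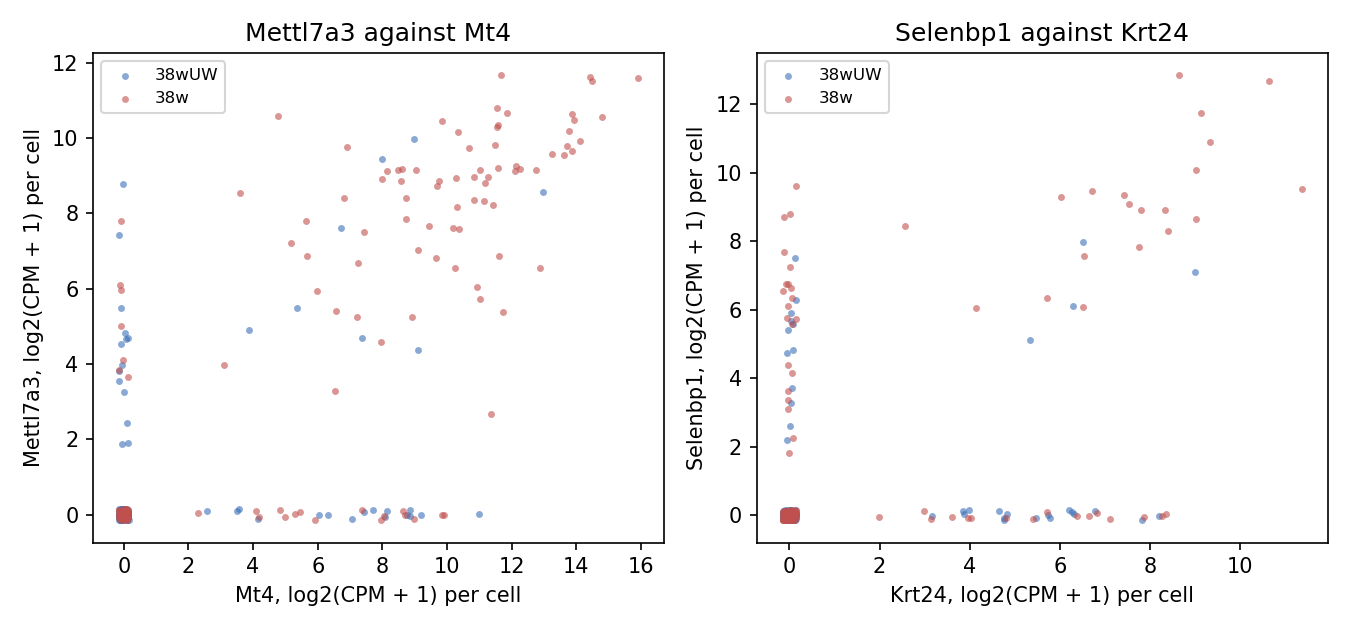
Mettl7a3 against Mt4 (left) and Selenbp1 against Krt24 (right) as log2(CPM + 1), each point a cell of 38w (red) or 38wUW (blue), with a small random shift so that cells at 0 can be seen. Cells of 38w with Mt4 hold nearly all Mettl7a3 reads of their group, and the highest Selenbp1 cells also have Krt24.

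To place the reads among the kinds of epidermal cells, each cell was put with the marker list on which it scored highest. These are score classes and not cell types, and 39 of 310 cells lay within 0.1 of another class. Cells that scored highest on interfollicular differentiated markers were 23 of 70 and 19 of 75 in 38w and 9 of 82 and 7 of 83 in 38wUW. In 38w, Mettl7a3 was read in 22 of these 23 cells of RepI and in 15 of the 19 of RepL, and Selenbp1 in 13 and 9. Basal cells came next for Mettl7a3, with 12 of 20 and 17 of 27 cells, and basal cells of RepL held 63.5% of its reads. For Selenbp1, the interfollicular differentiated class held 88.4% of the reads of RepI and 72.6% of those of RepL. Junctional zone cells, of the compartment in which the lineage label starts, had Mettl7a3 in 3 of 8 and 0 of 4 cells of 38w (0 of 4 allows a share of up to 75%), and Selenbp1 in 3 of 8 and 1 of 4.

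The question whether the interfollicular differentiated class differed from the other cells of its replicate did not enter the choice of the genes and was tested over the 4 replicates on thinned cells. Mettl7a3 was read in 90.9% against 37.0% of cells in RepI, 73.7% against 33.3% in RepL, 28.6% against 7.02% in RepM and 0% against 2.86% in RepN, where the class had 5 cells, which allows a share of up to 60%. The mean difference was 28.2 ± 24.6 percentage points (SD, n = 4), above 0 in 3 of 4 replicates (exact two-sided sign-flip permutation test, p = 0.25). For Selenbp1 the shares were 40.9% against 19.6%, 42.1% against 7.84%, 14.3% against 5.26% and 0% against 5.71%, and the mean difference was 14.7 ± 17.1 percentage points (SD, n = 4, exact two-sided sign-flip permutation test, p = 0.25). This test cannot give a p under 0.125 with 4 replicates. Without thinning, all 4 replicates were above 0 for both genes, with means of 40.1 and 18.0 points (exact sign-flip permutation test, p = 0.125 each). The marker list holds Mt4 and Krt2, the genes most like Mettl7a3. With both left out, the differences were 27.4 and 16.1 points.

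The difference between groups was also seen inside some of the classes. Within the interfollicular differentiated class, the mean level of Mettl7a3 was 907 and 535 CPM in RepI and RepL against 130 and 167 CPM in RepM and RepN. That of Selenbp1 was 943 and 171 CPM against 15.4 and 1.66 CPM. Among basal cells, Mettl7a3 averaged 421 and 269 CPM against 30.7 and 37.0 CPM, and Selenbp1 41.8 and 46.6 CPM against 11.9 and 0 CPM (no read in 13 cells). In each of these 4 comparisons both 38w replicates were above both 38wUW replicates, but single cells carried several of the means. Without the highest cell of each replicate, Mettl7a3 averaged 799 and 400 CPM against 53.9 and 15.3 CPM in the interfollicular differentiated class, and 342 and 222 CPM against 17.4 and 1.26 CPM in basal cells. Selenbp1 then averaged 640 and 141 CPM and 19.2 and 6.23 CPM in the 38w replicates of these classes, with no read left in either 38wUW replicate. Over all 6 classes, both 38w replicates were above both 38wUW replicates in 5 for Mettl7a3, with the junctional zone as the exception, and in 3 for Selenbp1. Several of these orders were lost without the highest cell of each replicate. Mettl7a3 in RepI and RepL then averaged 7.48 and 0 CPM in infundibular and duct cells, 4.22 and 0 CPM in bulge cells and 0 and 21.7 CPM in sebocytes. Both 38wUW replicates were at 0 CPM in these classes. Selenbp1 in junctional zone cells then averaged 26.6 and 0 CPM against 0.508 and 5.28 CPM. In bulge cells the replicates overlapped for Selenbp1, with means of 4.38 and 11.8 CPM in RepI and RepL against 27.3 and 8.83 CPM in RepM and RepN. Without its highest bulge cell, RepM stood at 2.40 CPM.

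The mix of classes differed as well. Interfollicular differentiated cells were 32.9% and 25.3% of the 38w replicates against 10.98% and 8.43% of 38wUW, and basal cells 28.6% and 36.0% against 18.3% and 15.7%. The interfollicular markers as a list did not follow. Their summed level was 21278 and 4482 CPM against 6578 and 4278 CPM, and 4 of 8 had a log2 fold change above 0 (median -0.03). Only Mt4 and Krt2 had both 38w replicates above both 38wUW replicates, while Krt1, Lor, Flg2 and Serpinb12 lay below 0. How much the frequency of the classes and the level within them each contribute to the summed difference was not tested.

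**Figure D4:**
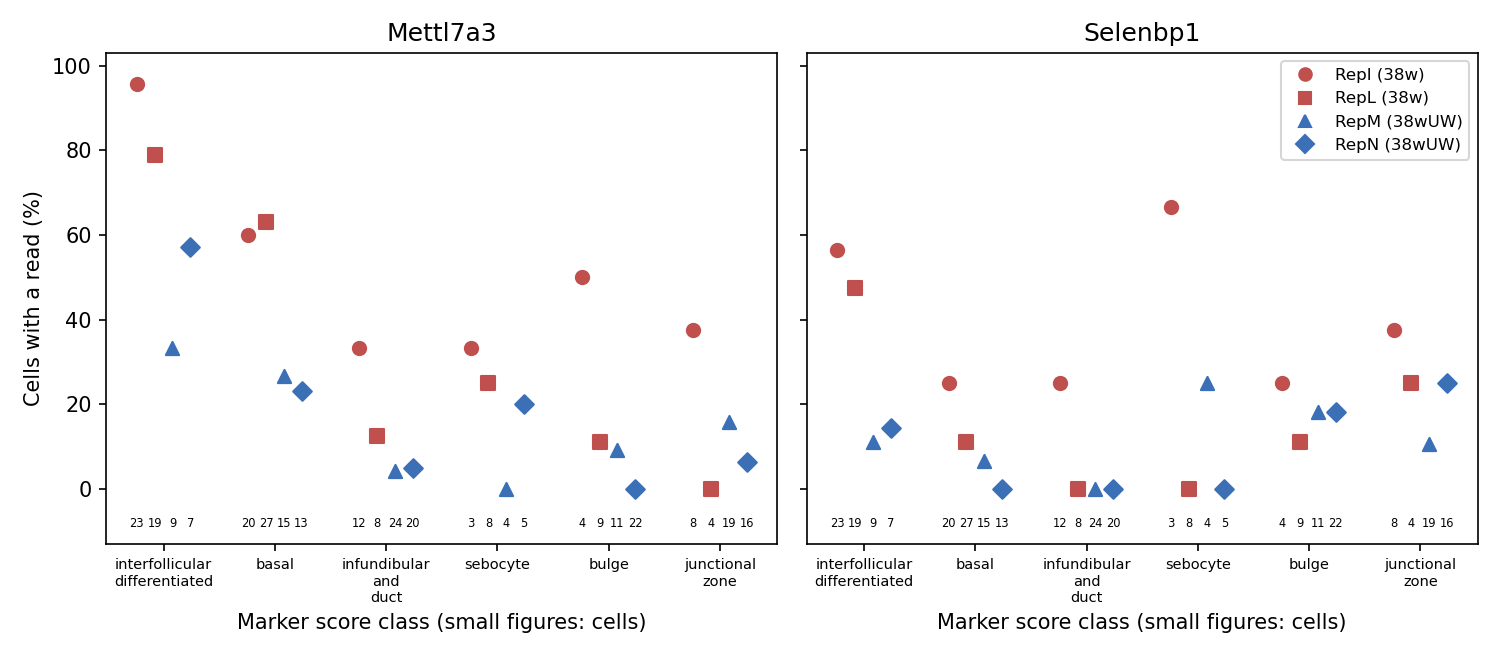
Share of cells with a read of Mettl7a3 (left) and Selenbp1 (right) by marker score class, unthinned, each point a replicate (red, 38w; blue, 38wUW), with the number of cells under it. For Mettl7a3, shares are highest in the interfollicular differentiated class of 38w, at 95.7% and 78.9%. For Selenbp1 this class of 38w stands at 56.5% and 47.4%, and only the sebocyte class of RepI is higher, at 66.7% of 3 cells. Several other points rest on fewer than 10 cells.

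Genes of the pathways around both enzymes were set beside them. No gene of any list passed an adjusted p of 0.05 in edgeR, so counts and medians describe the lists, beside a median log2 fold change of 0.12 and 53.4% of genes above 0 over all genes tested. Of sulfide and methanethiol metabolism, 10 of 12 genes tested lay above 0 (median 1.34). The paralogs Mettl7a1, Mettl7a2 and Mettl7b are part of this list and are counted among the 10. Mettl7a1 and Mettl7a2 share reads with Mettl7a3, so they are not separate from it. Cbs, which makes cystathionine and hydrogen sulfide, had 53.4 and 8.90 CPM in 38w against 11.3 and 10.7 CPM in 38wUW (log2 fold change 1.76 ± 1.03, SE), so that RepI alone stood out. Cth, Ethe1 and Cars2, of lower level and named here after their values were seen, had both 38w replicates above both 38wUW replicates. The other genes tested of this list did not. Cth, read in 7.74% of cells, had 12.1 and 35.9 CPM against 1.10 and 0.85 CPM (4.85 ± 1.22). Ethe1 had 30.5 and 5.86 CPM against 3.65 and 2.55 CPM (2.82 ± 1.18). Of the genes that remove peroxide and formaldehyde, 11 of 12 lay above 0 (median 1.14), but only 1 of the 12 had both 38w replicates above both 38wUW replicates. The glutathione peroxidase gene Gpx1 stood at 412 and 51.4 CPM against 38.2 and 15.7 CPM (3.36 ± 1.09). The peroxiredoxin gene Prdx5 had 338 CPM in RepI, but 54.1 CPM in RepL lay between the 38wUW replicates, at 76.7 and 39.0 CPM (2.02 ± 0.99). Catalase, Cat, went the other way, with 58.9 and 88.8 CPM against 95.03 and 152 CPM (-0.50 ± 0.83), and Prdx4 lay at 0.07 ± 0.95.

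The methyl donor cycle, which supplies S-adenosylmethionine, showed no common direction, with 5 of 9 genes above 0 (median 0.48). Ahcyl1, a homolog of the hydrolase that clears S-adenosylhomocysteine, had 23.6 and 57.2 CPM against 151 and 86.0 CPM (-1.31 ± 0.88). The hydrolase gene Ahcy itself stood at 0.83 ± 1.07, Mat2b, a subunit of the S-adenosylmethionine synthetase, at 0.48 ± 0.84 and Ahcyl2 at -0.12 ± 0.93. Gnmt, a glycine methyltransferase named here after its values were seen, had 28.8 and 1.72 CPM against 0.366 and 0.1545 CPM (6.17 ± 1.64). Of lipid droplet proteins, 8 of 11 genes lay above 0 (median 0.59). Bscl2, which encodes seipin, had 113 and 24.7 CPM against 18.8 and 11.4 CPM (2.45 ± 0.99), and Plin2, the common droplet coat protein, 38.6 and 84.6 CPM against 29.8 and 37.2 CPM (1.12 ± 0.88). The values of Dgat2, which makes triglyceride, and Faf2 were 0.55 ± 0.85 and -0.39 ± 0.85. Both 38w replicates were above both 38wUW replicates for 3, 1, 3 and 6 genes of these 4 lists, where 12.6% of all genes tested showed this order. By unadjusted p, 2, 1, 1 and 2 genes of these 4 lists were under 0.05, and DESeq2 called 1, 0, 1 and 0. Over all genes tested these shares were 8.07% and 0.57%.

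The 8 other genes of the scale panel had the highest median, 2.92, with 7 of 8 above 0. Both panels were taken over from the study, with its results known, so their direction is not independent evidence. The hard keratins Krt84 and Krt36 stood at 1710 and 6958 CPM in RepI and 698 and 1802 CPM in RepL. They were nearly absent from RepM, at 0.731 and 6.03 CPM, and had no read in RepN, which allows up to 0.232 CPM, so a fold change has little meaning for them. Krt24 had 120 and 34.8 CPM against 7.67 and 5.48 CPM (3.82 ± 1.02), which is the order of replicates seen for Selenbp1, but also for Mettl7a3 and Krt2. Fgfbp1, a carrier of fibroblast growth factors, had 302 and 321 CPM against 120 and 125 CPM (1.599 ± 0.86), and Id2 48.3 and 83.6 CPM against 85.5 and 121 CPM (-0.40 ± 0.84). In the interscale panel, 6 of 8 genes lay above 0 (median 0.83). Krt2 had 4278 and 1063 CPM against 531 and 58.6 CPM (3.43 ± 1.34) and Ly6g6c, a Ly6 family gene, lay at 1.82 ± 1.12, whereas Krt1 (-0.36 ± 0.87) and Serpinb12 (-0.40 ± 0.98) did not follow. Of the scale panel, 5 genes had an unadjusted p under 0.05 and DESeq2 called 3, and of the interscale panel 1 and 0. Over all genes tested these shares were 8.07% and 0.57%. Across cells, the interscale panel was closer to Mettl7a3 (median likeness 0.23 over 7 genes compared) than to Selenbp1 (0.01). For the scale panel the medians were 0.03 and 0.06 over 6 genes. These leave out Krt84 and Krt36, which were read in too few cells to be compared (6.45% and 6.13%). Serpinb12 of the interscale panel (8.065%) was left out for the same reason. Whether Mettl7a3 or Selenbp1 goes with the hard keratins across cells was thus not tested. Of the study's markers of differentiated interfollicular cells, 62 of 90 genes tested lay above 0 (median 0.62), with 11 under an unadjusted p of 0.05 and 2 called by DESeq2. These 2 counts also stand beside 8.07% and 0.57% of all genes tested.

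**Figure D5:**
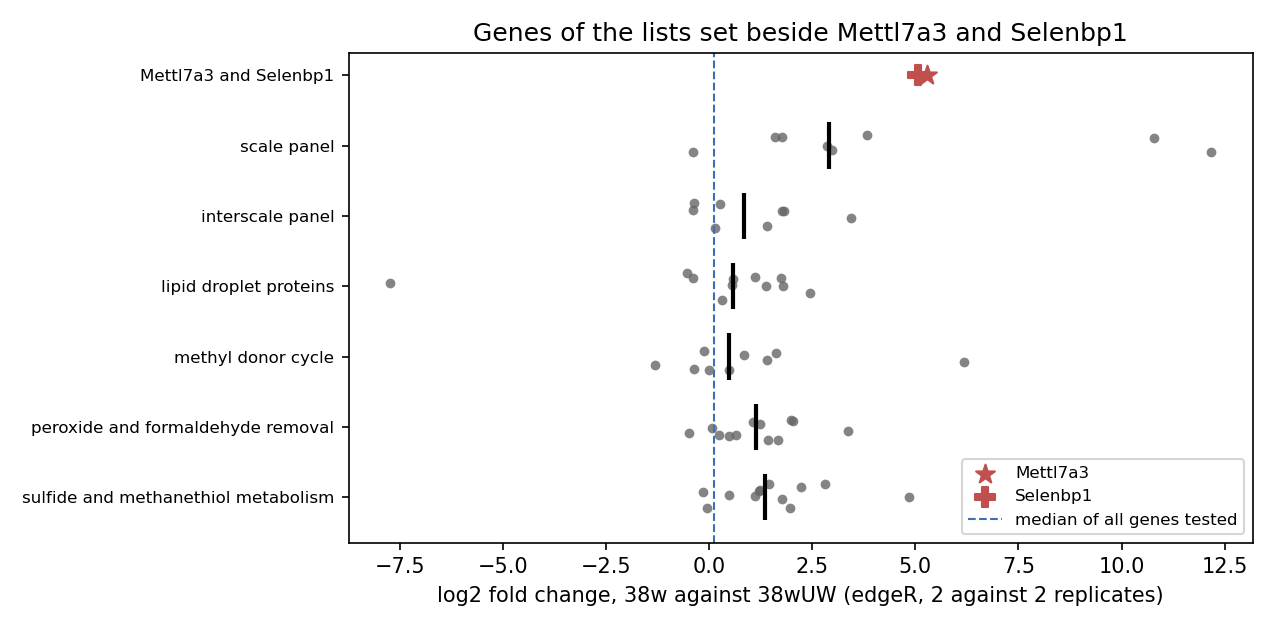
Log2 fold changes from 38wUW to 38w (x axis, edgeR fit on 2 against 2 replicates) of the genes tested in 6 lists, each grey point a gene and each black bar the list's median, with Mettl7a3 (star) and Selenbp1 (cross) on top. The dashed line is the median of all genes tested, 0.12; the scale panel has the highest median, 2.92, and only Krt84, Krt36 and Gnmt lie to the right of Mettl7a3.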

How the data were processed

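Single cells were profiled with Smart-seq2 as single-end reads of 75 bases. The authors mapped reads with Salmon 0.13.1 (per the submitters' processing notes, which name mm10 and GRCm38) and deposited unscaled estimated counts for every gene in every cell. By the study's methods, a cell needs at least 1000 genes and at most 50% mitochondrial reads, and a gene at least 5 cells. Each deposited sample is labelled as a cell, so the replicate was the unit. Counts were rounded, summed per replicate and fitted with edgeR 4.0.16 in R 4.3.3 (TMM, filterByExpr, quasi-likelihood F-test, Benjamini-Hochberg, threshold 0.05). Standard errors of log2 fold changes were derived from this test, as the absolute fold change divided by the square root of F. A test on simulated data came first. Its dispersion was set and not estimated from these data, so it does not show the power reached here. DESeq2 1.42.0 was an alternative. Shares of cells were compared after thinning to 20000 reads, which 277 of 310 cells reached. Doublets were not called, as the protocol sorts individual cells into wells. Annotation and transcripts came from GENCODE vM21, promoters from a RefSeq table whose copy used here matched 1 of the 2 genes.

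The members and lists were chosen with earlier results of these data known. Named were both genes, 4 paralogs, the 10 most and 3 least alike genes of each, with the same sign on at least 4 of 5 plates, and, from each list, the 2 highest and 2 lowest log2 fold changes among genes whose average log2 CPM reached 4. Krt84, Krt36 and Cat fall under this rule. Alternatives were other scalings, filters, thinning, left-out replicates, plates and cells, and blocks. The rounding of sums and a marker list without Mt4 and Krt2 were added after seeing the data.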

Additional observations from a re-analysis of the deposited data

How the results depend on the processing

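The log2 fold change of Mettl7a3 was positive under all 17 alternatives (4.41 to 6.80), as was that of Selenbp1 (3.33 to 5.83). It moved by more than the spread between replicates for Mettl7a3 without RepM, where it was 6.80 (4.54 to 6.80 with each replicate left out), and for Selenbp1 without RepI, where it was 3.73 (3.73 to 5.83 with each left out), and without plate C114 of RepI, where it was 3.33. The gap in the share of thinned cells with a read stayed between 38.3 and 48.4 percentage points for Mettl7a3 and between 11.4 and 20.7 for Selenbp1 under 11 alternatives each. The class difference stayed positive under 9 alternatives each, at 19.7 to 40.1 and 8.22 to 21.5 points, and the mean correlation of both genes, 0.19, stayed at 0.12 to 0.28 under 6.

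The count of genes called between groups did not hold. It was 0 in edgeR, 67 in DESeq2, 1 without a filter on low counts and 0 to 1223 with each replicate left out. The cause was not tested. The labels carry a batch tag, Replicate1 or Replicate2, and an alternative tag that gives the 38wUW plates the other way round. With plates as units and a replicate block by the batch tag, 1 gene was called, and by the alternative tag 4 genes, against 0 without a block. The log2 fold changes of Mettl7a3 were 5.67 and 5.14 and those of Selenbp1 4.70 and 4.28. Deviations of plates with the same batch tag correlated at 0.03 to 0.21, and by the alternative tag at -0.21 to -0.03. The latter are no separate check, since 38wUW has only 2 plates, whose deviations mirror each other. Neither tag was taken to pair the samples. With 2 replicates a group, an exact permutation test between groups cannot give a p under 0.333. In RepN, the interfollicular differentiated class had 7 cells, of which 5 had the depth for thinning, so its share is imprecise.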
